A study of Mus musculus with 6 samples.

Results

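The genes described here are 37 genes of DNA replication and S phase, the part of the cell cycle in which chromosomes are copied. They were chosen by name, and each was read from the probe sets that the platform annotation gives to that gene alone, using the one with the highest mean over the 6 arrays. A probe set of its own was named for 36 of the 37, all of which passed the filter on dim probe sets, among 12279 genes tested in all. Chaf1a was not analysed here, since no probe set named it alone.

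RNA came from endothelial cells of mouse lung, the cells that line blood vessels, kept at 0.5% oxygen for 16 h before harvest. The 3 knockout arrays came from mice with VE-Cadherin-Cre, which drives recombination in endothelial cells, and floxed alleles of HIF-2a on both copies. HIF-2a, encoded by Epas1, is a transcription factor that accumulates at low oxygen. For the 3 controls the labels differ: one field has VE-Cadherin-Cre HIF-2a floxed/WT, the design text floxed/floxed and the genotype field wild type, so their exact genotype is not settled. The cells had been selected several times with endothelial markers, and with no array at normal oxygen, effects of hypoxia are not measured. Nothing in the labels tells separate cultures or mice apart within a group, and p-values then measure only the spread between these arrays. Epas1, the targeted gene, read 9611, 9590.3 and 9444 intensity units in controls 1 to 3 and 8920.4, 9397 and 9859 in knockouts 1 to 3, with overlapping groups (-0.025 ± 0.041 on the log2 scale, limma adjusted p = 0.753). Where its probe set lies relative to the deleted exons is not given in the sources used here, so its level checks nothing and the genotypes rest on the labels.

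Replication starts when the origin recognition complex, with Cdc6 and Cdt1, loads the ring-shaped MCM2-7 helicase onto DNA in G1, a step called licensing. At the onset of S phase Cdc45 and the GINS complex join the helicase, polymerases copy each strand, and nucleotide-making enzymes supply the substrates. Many of these genes are transcribed together late in G1 by E2F factors once cyclin E and other cyclin kinases inactivate the RB protein.

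Promoter sequences are shown because most members differed between the groups in 1 direction and E2F motifs are the element these genes are best known to share. The RefSeq table of promoters (build GRCm38.p6, 250 bases before to 50 after each start) held 31 of the 37 genes. Ccne2, Gins1, Gins2, Gmnn, Mcm4 and Pole had no entry. The motif searched was TTTCCCGC, TTTCGCGC, TTTGCCGC or TTTGGCGC on either strand, counting overlapping matches. The 170 bases before the start are given 5′ to 3′ for the 5 members with the smallest p that held a match within them, and then for 2 without a match in any promoter of the gene, with matches in capitals.
Mcm5 (chr8:75109339-75109508, plus strand): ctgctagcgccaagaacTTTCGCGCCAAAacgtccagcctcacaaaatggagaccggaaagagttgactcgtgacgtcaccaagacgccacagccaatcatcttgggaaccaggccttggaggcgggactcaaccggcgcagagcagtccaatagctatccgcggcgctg
Orc1 (chr4:108579284-108579453, plus strand): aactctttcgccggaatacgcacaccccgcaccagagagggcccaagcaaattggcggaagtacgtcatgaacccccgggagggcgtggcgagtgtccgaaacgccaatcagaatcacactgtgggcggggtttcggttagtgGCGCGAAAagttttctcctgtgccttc
Cdc6 (chr11:98907981-98908150, plus strand): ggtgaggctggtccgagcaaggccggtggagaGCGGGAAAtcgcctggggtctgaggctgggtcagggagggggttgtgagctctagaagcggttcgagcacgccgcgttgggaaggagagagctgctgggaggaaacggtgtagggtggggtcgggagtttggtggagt
Mcm7 (chr5:138171884-138172053, minus strand): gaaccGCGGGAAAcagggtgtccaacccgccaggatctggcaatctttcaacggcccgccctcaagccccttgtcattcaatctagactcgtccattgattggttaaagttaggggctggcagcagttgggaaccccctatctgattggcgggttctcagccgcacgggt
Mcm6 (chr1:128359706-128359875, minus strand): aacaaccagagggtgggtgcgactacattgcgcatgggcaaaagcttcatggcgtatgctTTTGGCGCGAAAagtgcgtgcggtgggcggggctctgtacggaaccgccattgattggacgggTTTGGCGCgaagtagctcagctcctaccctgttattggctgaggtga
Mcm10 (chr2:5012792-5012961, minus strand): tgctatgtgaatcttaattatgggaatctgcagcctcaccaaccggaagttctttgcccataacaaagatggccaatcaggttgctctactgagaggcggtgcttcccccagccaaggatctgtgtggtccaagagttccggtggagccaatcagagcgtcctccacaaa
Mcm2 (chr6:88898781-88898950, minus strand): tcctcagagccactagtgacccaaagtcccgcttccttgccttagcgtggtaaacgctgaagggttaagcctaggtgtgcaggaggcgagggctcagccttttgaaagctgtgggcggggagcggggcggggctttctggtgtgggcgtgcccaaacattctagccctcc

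At least 1 E2F match lay in 13 of 36 member promoters (36.1%, from 13 of 31 genes), against 2.26% of all 32851 promoters of that length. The box CCAAT, read by the factor NF-Y, was in 55.6% of member promoters and 37.4% of all, and ACGTG, the core that HIF factors bind, in 33.3% and 19.6%. In Mcm5 and Mcm6 matches on opposite strands overlapped each other. The 13 genes with an E2F match had a median log2 difference, knockout minus control, of 0.70, and the 17 tested genes without one had 0.65. Mcm10 and Orc1, the members with the largest differences below, fell on either side of that division.

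Most replication and S phase genes were higher in the knockout arrays. Of the 36 tested, 25 rose, 0 fell and 11 did not pass with limma at an adjusted p of 0.05, where 8.63% of all genes tested rose and 5.07% fell. At an unadjusted p under 0.05 with limma, 32 were higher and 0 lower, against 2590 and 1390 of all 12279 genes. The median log2 difference of the 36 was 0.67, against 0.0071 for all genes tested, and single members ran from -0.12 to 1.48. The difference was above 0 in 34 members, against 62% of all genes. In 31 members every knockout array lay above every control array and in 0 below, against 23.4% and 12.8% of all genes, and the other 5 (Orc6, Mcm4, Pola1, Ccne1 and Ccne2) overlapped. Log2 values are log2(intensity + 16), with intensity in the deposited units. The added 16 keeps the differences of dim genes small, and all genes tested include many of these. Of the 12279 genes, 7880 were at least as bright as the dimmest member. With the 60% lowest probe sets left out, the median over all genes was 0.051 and 13.3% of them rose. Since cells were measured in bulk, more cells in S phase and more RNA per cell cannot be told apart.

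**Figure D1:**
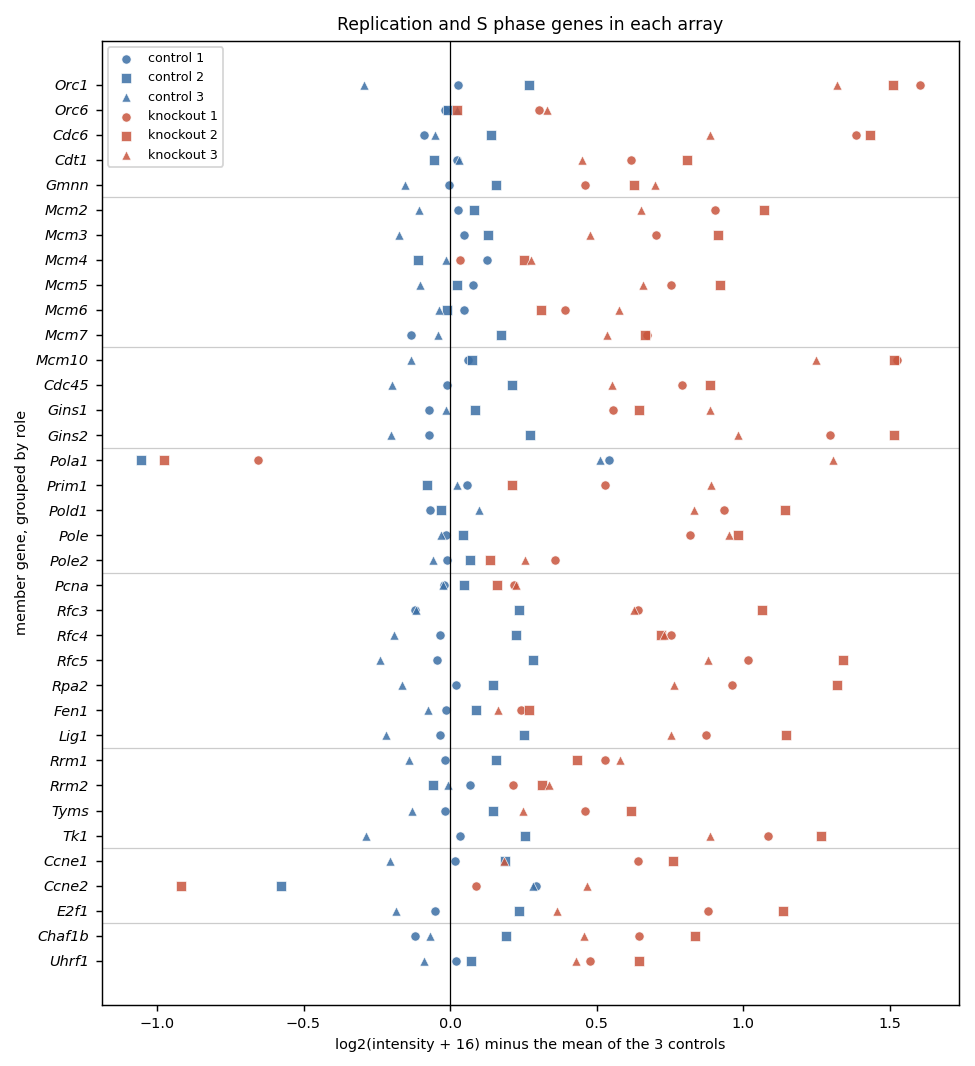
Each point is 1 array, as log2(intensity + 16) minus the mean of the 3 controls of that gene, with controls in blue and knockouts in red, and lines dividing the roles. In 31 of the 36 genes all red points lie to the right of all blue ones; Pola1 and Ccne2 show the widest spread within each group.

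The number of calls changed with single arrays more than the median difference did. With each array left out in turn, 2 members passed when control 1 was dropped, 14 when it was control 2 and 3 when it was control 3. For knockouts 1, 2 and 3 the numbers were 2, 12 and 28. In the same order, 0.766%, 4.94%, 0.904%, 1.25%, 4.07% and 16.2% of all genes rose. The median difference of the members stayed between 0.61 and 0.74 in those 6 fits. Pole and Mcm10 passed in all 6 of them. Across all genes, controls 1 and 3 stood nearest to one another: their log2 values differed with an SD of 0.14, where the remaining pairs within a group had 0.31 to 0.68. With these averaged into 1 sample, 2 members passed, again Mcm10 and Pole, where 0.774% of all genes rose, and the median difference was 0.65. With control 2 and knockout 3 left out together, 29 members were called higher and Pola1 lower, where 24% of all genes rose.

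Other settings moved the count less, apart from the filter, array weights and a covariate for the spike-in controls. With that covariate, described below, 7 members were called higher (4.36% of all genes). Pseudocounts of 1 and 64 gave 26 and 23 members higher (9.51% and 7.56% of all genes), and quantile and 75th percentile scaling gave 24 and 23 (7.96% and 7.65%). A trend or a robust fit in eBayes gave 25 and 23 (8.84% and 7.58%), and the mean of a gene's probe sets gave 25 (7.64%). Leaving out the 60% lowest probe sets gave 24 (13.3%), no filter gave 13 (2.82%) and array weights gave 33 (40.8%), with Pola1 called lower (-1.08, adjusted p = 0.0143).

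**Figure D2:**
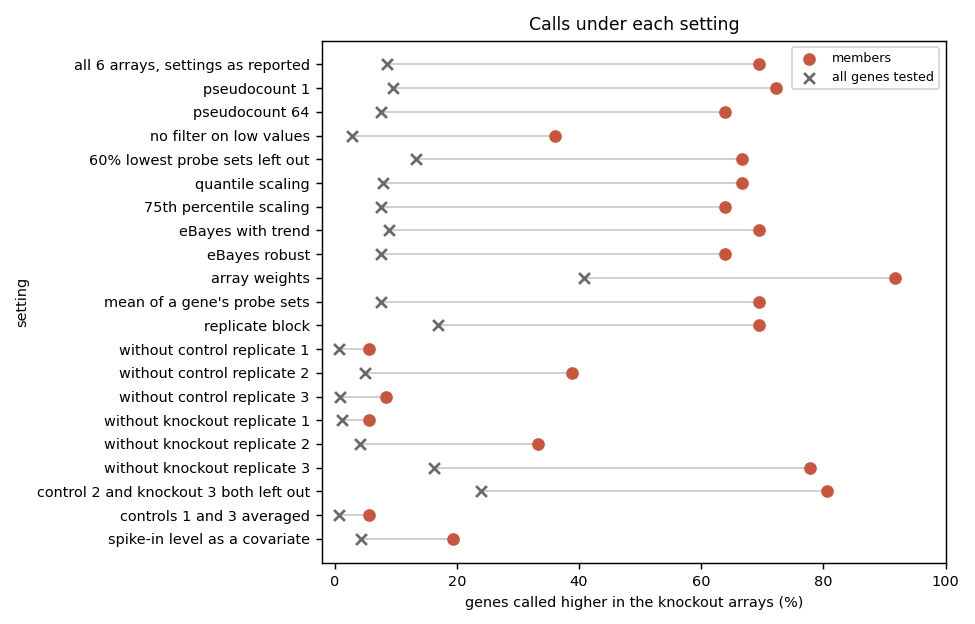
For each setting, the red point is the percentage of the 36 members called higher in knockout arrays and the grey cross that of all genes tested. The member percentage falls to 5.56% without control 1 or without knockout 1, against 69.4% with all arrays, and in each setting it lies to the right of the cross.

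A comparison of single arrays showed the same direction for nearly all members. In the 9 pairings of a knockout with a control array, between 33 and 36 of the 36 members were higher in the knockout array. The smallest median difference was 0.50, between knockout 3 and control 2, where 57.7% of all genes were higher in the knockout array. The largest was 0.91, between knockout 2 and control 3. Between arrays of 1 group the median of the members differed by at most 0.20 among controls (control 3 below control 2) and 0.24 among knockouts (knockout 3 below knockout 2).

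Among origin licensing genes 4 of 5 rose and Orc6 did not pass. Orc1, the ATPase subunit of the origin recognition complex that is made anew in each cycle, read 201, 240 and 158 intensity units in controls 1 to 3 and 631, 591 and 515 in knockouts 1 to 3. The lowest knockout array was more than the highest control array by 1.05 on the log2 scale, and the groups differed by 1.48 ± 0.17 (SE, adjusted p = 0.0140), a 2.90-fold ratio of mean intensities. Cdc6, which loads the helicase together with Cdt1, read 1036, 1218 and 1063 in controls and 2904, 3005 and 2051 in knockouts. Its groups did not overlap, with knockout 3 the lowest of the knockouts, and the difference was 1.23 ± 0.18 (adjusted p = 0.0208).

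Cdt1 itself, the licensing factor that is destroyed when S phase starts, read 5472, 5179 and 5503 in controls and 8274, 9434 and 7361 in knockouts (0.63 ± 0.10, adjusted p = 0.0267). Gmnn, which encodes geminin, the inhibitor of Cdt1, read 4758, 5314 and 4289 in controls and 6567, 7383 and 7754 in knockouts (0.60 ± 0.11, adjusted p = 0.0328). The factor and its inhibitor were thus both higher in every knockout array. Orc6, a small subunit of the origin complex, read 8212, 8268 and 8454 in controls and 10259, 8454 and 10460 in knockouts, with knockout 2 at the level of control 3 and a difference of 0.22 ± 0.092 (adjusted p = 0.184).

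Of the 6 subunits of the MCM2-7 ring, 5 rose and Mcm4 did not pass. Mcm5 read 6201, 5971 and 5470 in controls and 9923, 11139 and 9277 in knockouts, and differed by 0.78 ± 0.088 (adjusted p = 0.0136). Mcm2 read 4125, 4284 and 3763 in controls and 7591, 8537 and 6375 in knockouts, and differed by 0.88 ± 0.12 (adjusted p = 0.0209). For these subunits the knockout arrays lay clear of the controls, with knockout 2 highest and knockout 3 lowest. Mcm7 read 7850, 9733 and 8376 in controls and 13749.9, 13664 and 12498.5 in knockouts (0.62 ± 0.095, adjusted p = 0.0244). Mcm3 read 4334, 4586 and 3717 in controls and 6835, 7916 and 5851 in knockouts (0.70 ± 0.14, adjusted p = 0.0447). Both groups were apart in each of these genes, Mcm3 with the smaller gap relative to its spread.

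Mcm6 rose by 0.43 ± 0.078 (adjusted p = 0.0345) with another order of the arrays: it read 5156, 4959 and 4863 in controls and 6549, 6192 and 7453 in knockouts, with knockout 3 highest. Mcm4 read 10516, 8932 and 9540 in controls and 9880, 11471 and 11674 in knockouts, so that knockout 1 lay among the controls (0.19 ± 0.096, adjusted p = 0.257). A dimmer probe set of Mcm4 read 7110, 6980 and 6367 in controls and 7714, 7138 and 8368 in knockouts. There the groups did not overlap but lay close (0.18 ± 0.077, limma adjusted p = 0.229 in a fit over all probe sets). The subunits form a ring with 1 copy of each, but their probe sets have different responses, and whether Mcm4 differed from the other subunits in its change was not tested.

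All 4 genes that turn the loaded ring into a working helicase rose. Mcm10, which is needed to start unwinding, read 599, 605 and 522 in controls and 1681, 1669 and 1385 in knockouts. The gap between the groups, 1.17 on the log2 scale, was larger than the range within controls (0.21) or knockouts (0.28), and the difference was 1.43 ± 0.10 (adjusted p = 0.00557). Gins2, a subunit of the GINS complex, read 1782, 2272 and 1631 in controls and 4629, 5386 and 3725 in knockouts (1.26 ± 0.19, adjusted p = 0.0245). Control 2 was the highest control and knockout 3 the lowest knockout, as in Cdc6. Gins1, of the same complex, read 1406, 1571 and 1466 in controls and 2182, 2319 and 2747 in knockouts, here with knockout 3 highest (0.69 ± 0.10, adjusted p = 0.0222). Cdc45, which binds GINS and the ring, read 2310.4, 2698 and 2026 in controls and 4046, 4317 and 3421 in knockouts (0.74 ± 0.14, adjusted p = 0.0395), again with control 2 and knockout 3 nearest to each other.

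**Figure D3:**
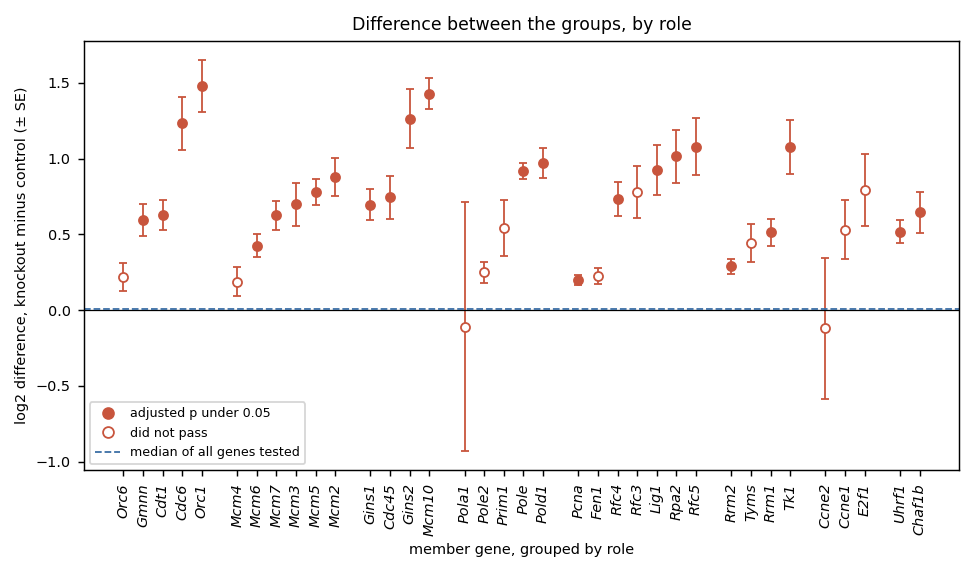
Points are log2 differences, knockout minus control, with SE bars, for the 36 members grouped by role; filled points passed an adjusted p of 0.05 and the dashed line is the median of all genes tested (0.0071). The largest differences are those of Orc1 (1.48), Mcm10 (1.43) and Gins2 (1.26), and the widest bars those of Pola1 and Ccne2.

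Of the polymerase and primase genes 2 of 5 rose. Pole, the catalytic subunit of the leading-strand polymerase epsilon, read 608, 634 and 601 in controls and 1096, 1228 and 1203 in knockouts. It had the smallest p of the members, with a difference of 0.92 ± 0.052 (adjusted p = 0.00329). Pold1, the catalytic subunit of polymerase delta, which copies the lagging strand, read 3448, 3542 and 3871 in controls and 6918, 8005 and 6450 in knockouts (0.97 ± 0.097, adjusted p = 0.0111). These catalytic subunits were close to 2-fold higher, with ratios of mean intensities of 1.91 and 1.97. Prim1, the catalytic primase subunit, read 6643, 6046 and 6495 in controls and 9222, 7401 and 11864 in knockouts. All its knockout arrays lay above the controls, but they ranged over 0.68 on the log2 scale and the difference of 0.54 ± 0.19 did not pass (adjusted p = 0.126).

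Pole2, the second subunit of polymerase epsilon, read 1095, 1156 and 1059 in controls and 1418, 1214 and 1320 in knockouts (0.25 ± 0.069, adjusted p = 0.0820), with groups that did not overlap but lay close. Pola1, the catalytic subunit of polymerase alpha, which makes the primers that start each fragment, read 595, 186 and 582 in controls and 250, 197 and 1021 in knockouts. Control 2 and knockouts 1 and 2 were low and knockout 3 was high, so the groups overlapped and the difference was -0.11 ± 0.82 (adjusted p = 0.934). At this spread a difference of the size seen in Pole could not have been told from 0.

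The clamp, its loader and the genes that bind or join strands gave 5 of 7 that rose, where 8.63% of all genes did. In all 7 every knockout array lay above every control array, as in 23.4% of all genes. Pcna, the sliding clamp, was bright and changed little: it read 24713, 25916 and 24654 in controls and 29170, 28022 and 29304 in knockouts (0.20 ± 0.032, adjusted p = 0.0267). Of the clamp loader subunits, Rfc5 read 589, 743 and 512 in controls and 1246, 1561 and 1131 in knockouts (1.08 ± 0.19, adjusted p = 0.0321). Rfc4 read 2111, 2532 and 1891 in controls and 3658, 3568 and 3596 in knockouts (0.73 ± 0.11, adjusted p = 0.0254), so that its knockout arrays were nearly equal. Rfc3 read 915, 1175 and 916 in controls and 1560, 2099 and 1547 in knockouts, and its difference of 0.78 ± 0.17 fell just outside the threshold (adjusted p = 0.0520). A dimmer probe set of Rfc3 differed by 0.98 ± 0.18 and passed in a fit over all probe sets (limma adjusted p = 0.0460).

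Rpa2, a subunit of the protein that coats single-stranded DNA, read 2980, 3257 and 2622 in controls and 5739, 7362 and 5001 in knockouts (1.01 ± 0.17, adjusted p = 0.0304). Lig1, the ligase that seals lagging-strand fragments, read 954, 1168 and 837 in controls and 1804, 2180 and 1658 in knockouts (0.92 ± 0.17, adjusted p = 0.0336). Fen1, the nuclease that trims the same fragments, read 16569, 17810 and 15885 in controls and 19794, 20176 and 18730 in knockouts, and its difference of 0.22 ± 0.055 did not pass (adjusted p = 0.0641). In Rpa2 and Lig1 knockout 2 was highest and control 3 lowest.

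Of the genes that supply deoxynucleotides 3 of 4 rose. Tk1, the thymidine kinase of dividing cells, read 3344, 3904 and 2676 in controls and 6950, 7872 and 6051 in knockouts (1.08 ± 0.18, adjusted p = 0.0289). Rrm1 and Rrm2, the large and small subunits of ribonucleotide reductase, rose by 0.51 ± 0.089 and 0.29 ± 0.050 (adjusted p = 0.0318 for each). Rrm1 read 5709, 6433 and 5245 in controls and 8328, 7793 and 8628 in knockouts. Rrm2 read 15187, 13901 and 14397 in controls and 16820, 17988.5 and 18292.5 in knockouts, with groups apart but close. Tyms, thymidylate synthase, read 307, 346 and 283 in controls and 434, 486 and 373 in knockouts, without overlap (0.44 ± 0.12, adjusted p = 0.0846). The other 3 probe sets that name Tyms alone lay under a signal of 16 in every array, and one that names it together with the pseudogene Tyms-ps was left out by the rule.

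The genes of entry into S phase did not pass. E2f1, which activates many of the genes above, read 953, 1166 and 867 in controls and 1832, 2186 and 1275 in knockouts. Its groups did not overlap, but knockout 3 lay close to control 2 and the difference was 0.79 ± 0.24 (adjusted p = 0.0986). Ccne1, a cyclin E, read 1595, 1798 and 1365 in controls and 2469, 2683 and 1791 in knockouts, with knockout 3 just under control 2 (0.53 ± 0.19, adjusted p = 0.144). Ccne2, the other cyclin E, read 1145, 619 and 1136 in controls and 990, 485 and 1295 in knockouts (-0.12 ± 0.47, adjusted p = 0.905), with control 2 and knockout 2 low and knockout 3 highest, as in Pola1. In limma 2 of these 3 genes, E2f1 and Ccne1, had an unadjusted p under 0.05.

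Both tested genes of chromatin copying rose. Uhrf1, which reads hemimethylated DNA behind the fork, read 11804, 12235 and 10947 in controls and 16217, 18229.5 and 15695 in knockouts (0.52 ± 0.076, adjusted p = 0.0223). Chaf1b, a subunit of the factor that deposits histones on new DNA, read 924, 1151 and 959 in controls and 1583, 1810 and 1387 in knockouts (0.65 ± 0.14, adjusted p = 0.0467). In these genes, too, control 2 was the highest control and knockout 3 the lowest knockout.

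That order of the arrays was common among the members. In 19 of 36 members (52.8%) control 2 was the highest control and knockout 3 the lowest knockout, against 42.0% of all genes tested. In 5 members (13.9%), Mcm4, Pola1, Prim1, Rrm2 and Ccne2, control 2 was the lowest control and knockout 3 the highest knockout, against 20.3% of all genes. Control 3 was the lowest of all 6 arrays in 23 members, knockout 2 the highest in 20 and knockout 3 the highest in 11. Within groups the SD of the members had a median of 0.14 on the log2 scale in controls and 0.17 in knockouts. For the 7880 genes at least as bright as the dimmest member it was 0.13 and 0.21.

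**Figure D4:**
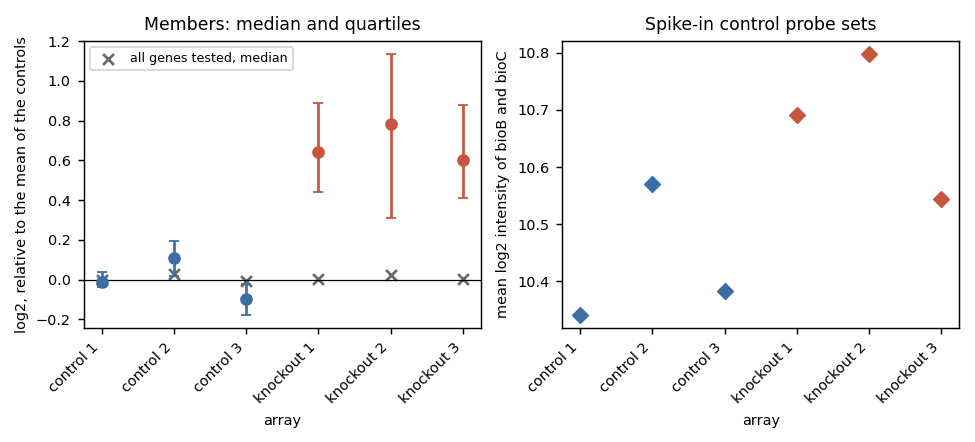
Left, the median (point) and quartiles (bars) of the 36 members in each array, as log2 relative to the mean of the controls, with the median of all genes tested as crosses; right, the mean log2 intensity of 5 spike-in probe sets (bioB, bioC). Member medians are -0.10 to 0.11 in controls and 0.60 to 0.78 in knockouts, while the spike-in level runs from 10.34 to 10.57 in controls and from 10.54 to 10.80 in knockouts.

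The array's own spike-in controls also differed between arrays. The mean log2 intensity of 5 bioB and bioC probe sets was 10.34, 10.57 and 10.38 in controls 1 to 3 and 10.69, 10.80 and 10.54 in knockouts 1 to 3. Knockout 3 lay just under control 2 in this level but had a member median of 0.60 against 0.11, relative to the control mean. The spike-in level and the member median had the same highest control, control 2. They also ranked the knockouts alike, with knockout 2 highest and knockout 3 lowest. The lowest control was control 3 for the member median and control 1 for the spike-in level. When the fit held that level as a covariate, all 36 differences were positive with a median of 0.53, and 7 members were called higher (Cdc6, Chaf1b, Gins2, Mcm10, Mcm6, Pold1 and Pole), where 4.36% of all genes rose. Against the fit without it, 14 members had a difference more than 1.5 times smaller, 3 had one more than 1.5 times larger, Pola1 and Ccne2 turned sign and 17 stayed within that range. Of the genes of entry into S phase, E2f1 and Ccne1 were among the first: E2f1 went from 0.79 to 0.22 and Ccne1 from 0.53 to 0.092. Tyms went from 0.44 to 0.14, Chaf1b from 0.65 to 0.29 and Cdc45 from 0.74 to 0.41. Prim1 went the other way, from 0.54 to 0.95, while Mcm10 went from 1.43 to 1.24 and Pole from 0.92 to 0.88. What the spike-in level adds to the member differences was not tested further.

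Over the other probe sets of the same genes the direction did not change. The members have 77 probe sets, of which 13 lay under a signal of 16 in every array, taken as the floor, and 64 were above it in every array. Of these 64, 62 were higher in knockouts and 36 passed in a fit over all probe sets, where 4.46% rose. The 2 that were lower were those of Pola1 and Ccne2. In 20 genes with several such probe sets, 23 of 28 dimmer ones gave a larger difference than the brightest (82.1%), against 63.0% over all genes tested and 66.4% of those called higher. The dimmer sets exceeded the brightest by a median of 0.24.

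Rrm2 shows the widest contrast, with 0.29 in its brightest set (14495 to 17700 intensity units, control to knockout means) and 0.57 and 1.18 in dimmer ones (3046 to 4534, and 1375 to 3073). The dimmest read 1123, 1831 and 1170 in controls and 3276, 3298 and 2647 in knockouts, with adjusted p = 0.0542 over probe sets. For Pold1 the dimmer set differed by 1.43 ± 0.14, for Mcm5 the next brightest by 1.22 ± 0.15 and for Uhrf1 by 1.29 ± 0.29. Over probe sets the brightest sets of Mcm3, Cdc45 and Chaf1b, which passed over genes, did not pass, with adjusted p = 0.0610, 0.0542 and 0.0634.

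**Figure D5:**
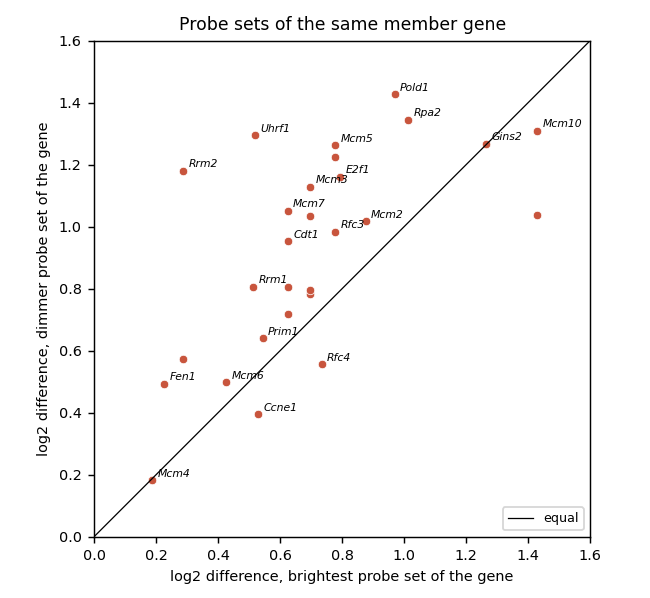
Each point is a dimmer probe set of a member, with its log2 difference against that of the brightest probe set of the same gene, over 20 genes; only probe sets above a signal of 16 in every array are shown. Of 28 points, 23 lie above the line of equality, with Rrm2 and Uhrf1 farthest above it and Mcm10 below it.

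Other genes of replication were higher in part. Of 38 further genes of the origin complex, polymerases, clamp loader and fork, 11 rose, 1 fell and 26 did not pass, with a median of 0.48. Of all genes tested 8.63% rose and 5.07% fell, with a median of 0.0071. Prim2, the regulatory primase subunit, rose by 0.59 ± 0.039 (adjusted p = 0.00459), Dna2, a nuclease and helicase of fragment processing, by 0.87 ± 0.061 (adjusted p = 0.00510), and Rpa1, the partner of Rpa2, by 0.35 ± 0.028 (adjusted p = 0.00690). Pole4, a small subunit of polymerase epsilon, rose by 0.91 ± 0.10 (adjusted p = 0.0134). Timeless, which steadies the moving fork, was the gene that fell, by 0.77 ± 0.088 (adjusted p = 0.0139), from 5618 ± 592 to 3271 ± 142 intensity units (SD, n = 3), while its partner Tipin had 0.65 ± 0.23 (adjusted p = 0.133). Top1, the topoisomerase ahead of the fork, had -0.61 ± 0.34 (adjusted p = 0.298). The calls in this list numbered 3 without control 1, control 3 or knockout 1, 7 without knockout 2 and 13 without knockout 3. In the same order, 207, 212, 313, 974 and 3006 of all 12279 genes were called in either direction.

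Of 33 tested further S phase genes, 10 rose, 0 fell and 23 did not pass with limma, where 8.63% of all genes rose and 5.07% fell. At an unadjusted p under 0.05 with limma, 15 were higher and 0 lower, against 2590 and 1390 of all 12279 genes. The median of the list was 0.32. Cdc25a, the phosphatase that activates the S phase kinase, rose by 1.12 ± 0.096 (adjusted p = 0.00792) and Dnmt1, the maintenance methyltransferase that Uhrf1 recruits, by 0.57 ± 0.054 (adjusted p = 0.00969). Asf1b, a histone chaperone, rose by 0.90 ± 0.097 (adjusted p = 0.0127) and Cdca7 by 1.81 ± 0.20, the nuclease Exo1 by 1.17 ± 0.13 (adjusted p = 0.0133 for each). The lowest values were those of Casp8ap2 (-1.03 ± 0.74) and Rrm2b (-0.98 ± 0.78), with adjusted p = 0.3995 and 0.4507. Without control 1, control 3 or knockout 1 the list had 0, 1 and 2 calls, with 13, 12 and 15 genes at an unadjusted p under 0.05. In those fits 0.766%, 0.904% and 1.25% of all genes rose.

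Marker lists of endothelial and other cells were read on the same arrays. Of 12 endothelial markers 0 rose and 4 fell with limma (0 higher and 7 lower at an unadjusted p under 0.05): Tek fell by 1.24 ± 0.15, Erg fell by 0.67 ± 0.11, Tie1 fell by 0.65 ± 0.13 and Pecam1 fell by 0.34 ± 0.067 (adjusted p = 0.0161, 0.0262, 0.0408 and 0.0414). Their summed intensity was 145320 to 157734 in controls and 119565 to 133325 in knockouts, led by Egfl7, Emcn and Cdh5, while Vwf and Cldn5 read 49.3 and 56.0 in controls. All 10 fibroblast markers lay under a signal of 16 in every array, among them the brightest, Pdgfra, Col3a1 and Col1a1, as did 7 of 8 smooth muscle markers (Tagln excepted, summed intensity 66.5 to 109 in controls and 104 to 242 in knockouts), 9 of 10 epithelial markers (Ager excepted) and 7 of 10 leukocyte markers, Ptprc included. Ager fell by 0.89 ± 0.16 (adjusted p = 0.0322), and the epithelial sum was 86.3 to 113 in controls and 62.1 to 64.8 in knockouts. The leukocyte sum was 4070 to 4813 in controls and 1360 to 2391 in knockouts, led by Cd68, which read 3834, 4252 and 3688 in controls and 1032, 1126 and 756 in knockouts and fell by 2.01 ± 0.17 (adjusted p = 0.00762). Coro1a was next, at 416 ± 94.5 in controls and 1004 ± 392 in knockouts (SD, n = 3), a difference of 1.18 ± 0.38 (adjusted p = 0.111), followed by Laptm5. The part of these shifts in the member differences was not tested.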

How the data were processed

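Each of the 6 samples was read on its own Affymetrix array from amplified, biotin-labelled total RNA, per the labels' protocols. The deposited table holds linear intensity values, 1 per probe set. MAS5 and GCRMA appear in the submitters' processing notes, with neither a version nor a role for either. The median intensity per array was 5.52 to 5.66, and no further normalization was applied. Dim probe sets lie close together at a floor.

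Values were taken as log2(intensity + 16), which understates changes of dim genes. A filter dropped 40% of the probe sets, those of lowest mean log2 value, and the brightest one left stood for its gene. Groups followed the genotype in the labels. They were compared with limma (version 3.58.1, R 4.3.3, two-sided), with Benjamini-Hochberg adjustment over 12279 genes and a threshold of 0.05. The fit was tested on simulated data with independent noise for each gene and array. In these arrays 87.1% of the variance within groups lay along 1 pattern, so the simulation does not check the calls made here. Named were all members, the 5 smallest p and 2 lowest differences of each further list, and the 3 brightest of each marker list. Of the smooth muscle and epithelial lists only the brightest, Tagln and Ager, were named. Other genes were named after their values were seen. The members and lists were chosen with earlier results of these data known. Alternatives were other pseudocounts, filters and scalings, eBayes settings, array weights, mean probe sets, a block for replicate number, and fits that drop one array. Leaving out control 2 with knockout 3, averaging controls 1 and 3, and the spike-in covariate were chosen after seeing the data. Figures used matplotlib 3.10.9. The number of arrays limits the precision.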

Additional observations from a re-analysis of the deposited data

How the results depend on the processing

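Over the single-member differences, 517 of 720 values under alternative settings kept direction and side of the threshold, 163 lost their call, 28 gained one and 12 turned sign. With arrays left out in turn, calls ranged from 2 to 28 for the members, 3 to 13 for the further replication genes, 0 to 11 for the further S phase genes and 207 to 3006 for all genes. Without a filter on low values the counts were 13 members, 6 further replication genes and 883 of all genes. More genes are then tested and the limma fit is made over all of them. What lowered the counts was not tested. With controls 1 and 3 averaged they were 2 members, 3 further replication genes, 0 further S phase genes (13 at an unadjusted p under 0.05 with limma) and 194 of all genes. With the spike-in covariate 7 members and 5 further S phase genes passed, the members' median was 0.53 and 40.3% of calls over all genes were higher, against 63.0%. Without control 2 and knockout 3 together the median was 0.82, with 20 further replication genes and 4640 of all genes called. With array weights, whose estimation stopped before it converged, 33 members were called higher and 1 lower (Pola1, -1.08), 32 further replication genes, 26 further S phase genes and 8542 of all genes passed, and Mcm4 turned to -0.049.

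Pola1 turned to 0.16 with controls 1 and 3 averaged, 1.95 with the spike-in covariate and above 0 without control 1, control 3, knockout 1 or knockout 2, with leave-one-out values of -0.82 to 0.33. Ccne2 turned to 0.023 with the averaged controls, 1.03 with the covariate and above 0 without control 1, control 3 or knockout 2, with leave-one-out values of -0.42 to 0.28. With arrays left out in turn the members' median was 0.61 to 0.74. The cause of these changes was not tested. With the replicate number as a block 25 members passed, 20 of them among the 25 above, and 2993 of all genes. Same-numbered arrays deviated together for numbers 2 and 3 but not 1 (correlations of -0.47, 0.84 and 0.80 for numbers 1, 2 and 3). Deviations were taken from group means of 3 arrays, and 87.1% of their variance lay along 1 pattern. These correlations therefore cannot settle whether same-numbered arrays share more than a number. Signal near the floor and 3 arrays a group limit what can be detected.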

Other observations

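The subunits of the origin recognition complex differed in their spread. Whereas Orc1 stood clear between the groups, Orc2, Orc3, Orc4 and Orc5 had log2 differences of -0.14 ± 0.50, -0.41 ± 0.55, -0.20 ± 0.40 and -0.21 ± 0.21 (SE, limma adjusted p = 0.901, 0.686, 0.807 and 0.555), and the groups overlapped in each. Whether Orc1 differed from them was not tested. The GINS subunits Gins3 (0.66 ± 0.13, adjusted p = 0.0420) and Gins4 (0.48 ± 0.11, adjusted p = 0.0534) both had groups that did not overlap, as did Gins1 and Gins2. Every knockout array likewise lay above every control array in 23.4% of all genes tested.

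Among E2F factors, E2f7 and E2f8, which repress transcription, rose by 0.47 ± 0.097 (adjusted p = 0.0444) and 0.59 ± 0.088 (adjusted p = 0.0227), while the activators E2f2 and E2f3 had 0.59 ± 0.27 (adjusted p = 0.219) and 0.10 ± 0.049 (adjusted p = 0.221). Ribonucleotide reductase has another small subunit, Rrm2b, which is induced by p53; it read 2268 ± 1030 in controls and 1356 ± 1245 in knockouts (SD, n = 3) with overlapping groups, unlike Rrm2. These values were picked out after they were seen.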
